A study of Mus musculus with 4 samples.

Results

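Sperm move ions with a small set of pumps, exchangers and channels. Here 8 genes of that set were described in testis RNA of mice null for the taste receptor gene Tas1r3 and of wild-type mice. They were Atp1a4, Atp1b3, Atp2b4, Slc9c1, Slc26a8, Kcnu1, Lrrc52 and Hvcn1, chosen by name. All 8 were among the 17934 genes listed for every library, and all 8 were among the 17654 genes that passed the filter of a minimum of 1 CPM (counts per 1000000 assigned reads) as the mean over the 4 libraries. The Tas1r3 protein is part of the receptors for both sweet and umami taste. The compared mice were Tas1r3-/- (KO, 2 libraries) and Tas1r3+/+ (WT, 2 libraries). Mice of both genotypes were C57BL/6 males kept on a western diet for 18 weeks, so the diet was shared by KO and WT and no group on another diet was analysed here. The age of the mice, the structure of the null allele and whether each library came from its own animal are not given in the sources used here, so the p-values measure the spread between these libraries, which may be technical.

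A sperm cell keeps sodium, calcium, proton and potassium gradients across the membrane of its tail, and these gradients set the membrane potential and the internal pH on which swimming and capacitation depend. The sodium pump exports sodium, and that gradient can drive exchangers which expel protons. A rise in pH then opens channels for potassium and calcium, and a calcium pump returns calcium to its resting level. Most of these genes are switched on in spermatids and late spermatocytes.

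KO replicates 1 and 2 held an estimated 748637 and 597937 assigned reads, against 1719356 and 1807694 for WT replicates 1 and 2. The deeper WT libraries therefore gave the more precise values. Tas1r3 had 1.34 and 0 CPM in KO libraries 1 and 2, against 13.8 and 20.5 CPM in WT libraries 1 and 2, which is 1 estimated read in KO and 61 in WT. Tas1r3 itself was not called by the test described next, with a limma BH-adjusted p of 0.627. It passed with the replicate number as a block (limma, BH-adjusted p = 0.000277), without KO replicate 1 (1.31e-07) and without KO replicate 2 (2.03e-05). Markers of the labelled tissue were present. The 9 elongating spermatid markers summed to 29363 and 40412 CPM in KO and to 33849 and 33896 CPM in WT. The 8 round spermatid markers summed to 1633 and 1822 CPM in KO and to 1643 and 1578 CPM in WT. In whole tissue, fewer cells of a type and less RNA per cell cannot be told apart.

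None of the 8 genes passed the test between genotypes. Over all genes tested, limma on log2(CPM + 1) with Benjamini-Hochberg adjustment (BH, adjusted p under 0.05) called 0 genes higher in KO and 1 lower, 0.00566% of the genes. The gene called was not Tas1r3. At an unadjusted p under 0.05 there was 1 of the 8 members, Hvcn1, lower in KO. Of all genes tested, 4.33% stood there, 1.33% higher and 3.01% lower. In 4 members the mean log2 value was higher in KO and in 4 it was lower. In 3 of 8 members the genotypes did not overlap, with 2 above and 1 below WT, against 34.3% of all genes tested, 15.1% above and 19.2% below. A share of that size is near the background. The median log2 fold change, always KO minus WT, was -0.01 over the 8 members and -0.04 over all genes tested.

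**Figure D1:**
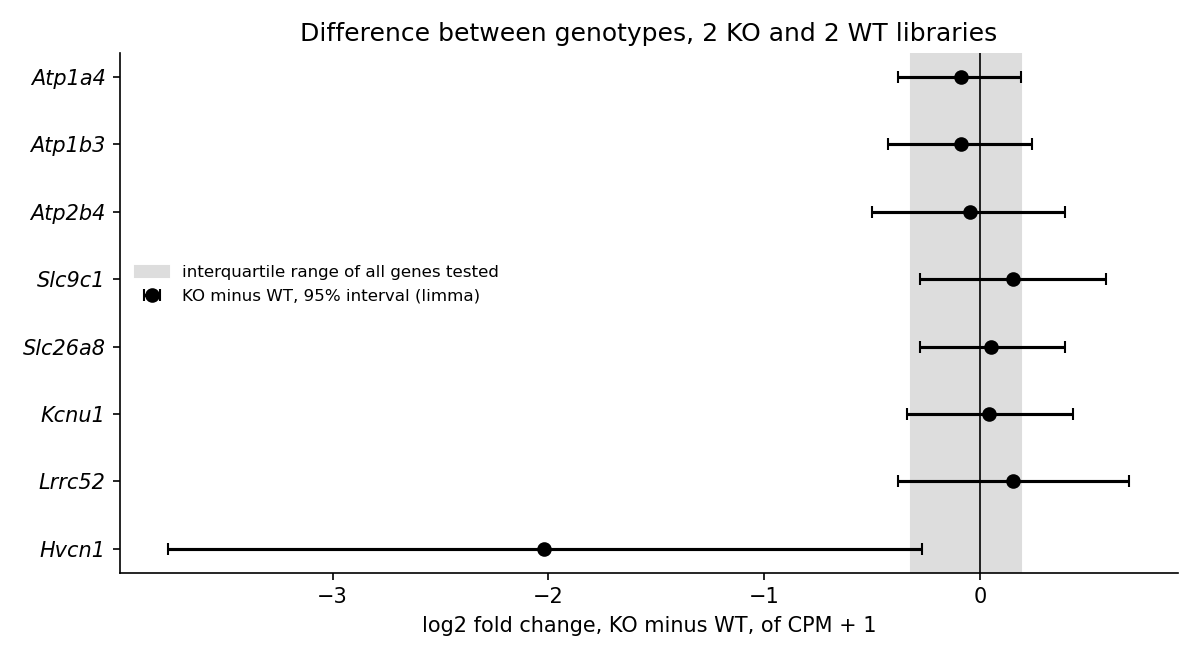
Log2 fold change of CPM + 1, KO minus WT, of each member on the horizontal axis, with its 95% interval from limma over 2 KO and 2 WT libraries. The grey band is the interquartile range of all genes tested, from -0.32 to 0.19. Every interval but that of Hvcn1 includes 0, and the 7 others lie within -0.50 and 0.69.

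For the 7 members other than Hvcn1 the data set bounds on a possible difference. Their log2 fold changes ranged in size from 0.04 to 0.15, with a median size of 0.09. The median size over the 7364 genes that averaged 20 CPM or more, the class these 7 belong to, was 0.15. The 95% intervals of the 7 members lay between a KO level of 0.708 times WT and one of 1.62 times WT on the CPM + 1 scale. Those are the extremes over the 7 intervals, the lower from Atp2b4 and the upper from Lrrc52, and no common detection limit. Nor are they a limit of the adjusted test, which did not call Tas1r3 either. With 2 libraries per genotype, the missed threshold does not show that the genotypes are alike. The gap between the KO libraries was larger than the change between genotypes. Its median size over the 7 members was 0.27 on the log2 scale between the KO libraries and 0.06 between the WT libraries.

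The levels of the 8 genes differed widely from each other and kept nearly the same order in every library. Compared per length of transcript, Atp1a4 was highest, with a mean over the 4 libraries of 213 CPM per kb, and Atp1b3 followed at 161. Slc26a8 had 38.8, Lrrc52 31.8, Slc9c1 24.7, Kcnu1 22.4 and Atp2b4 11.5 CPM per kb. Hvcn1 stood last at 0.585 CPM per kb. Among all 17934 genes ordered by CPM per kb, Atp1a4 was at rank 429 and Hvcn1 at rank 16723.

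Some neighbours in this order did not differ beyond their spread. Lrrc52 and Slc9c1 overlapped over the libraries, since the lowest Lrrc52 value was 27.1 CPM per kb and the highest Slc9c1 value 29.9, although Lrrc52 was higher within each of the 4 libraries. Slc9c1 and Kcnu1 also overlapped, and Slc9c1 was the higher in 3 of 4 libraries. Slc26a8 stood barely above Lrrc52, with a lowest value of 37.6 CPM per kb against a highest of 36.8. The other neighbouring pairs were separate in these libraries.

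**Figure D2:**
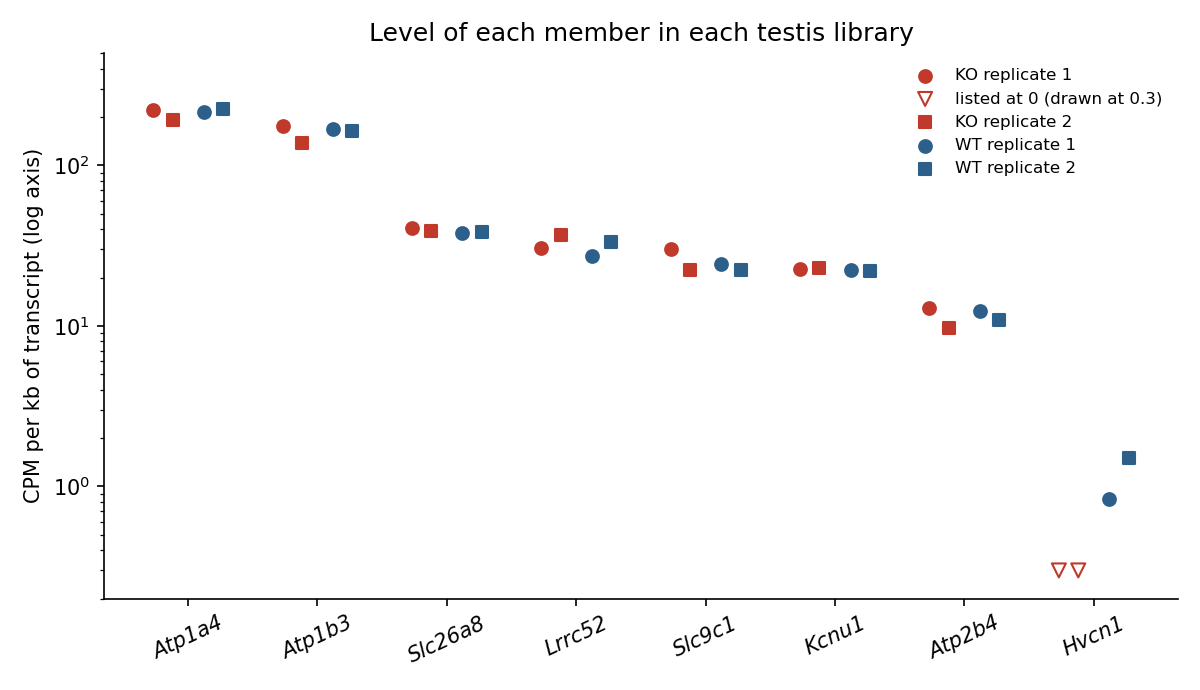
CPM per kb of transcript, on a log axis, of each member in each library, ordered by the mean over the 4 libraries. Red points are KO and blue points WT, circles are replicate 1 and squares replicate 2. The points of KO and WT lie close together from Atp1a4 to Atp2b4, and Hvcn1 is listed at 0 in both KO libraries (open triangles).

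The sodium pump was the most abundant transporter of the set. Atp1a4, at chromosome 1, 172051075 to 172085992 on the minus strand (build mm39), encodes the catalytic alpha subunit that is made in male germ cells and is needed for sperm motility in mice. It had 770 and 670 CPM in KO replicates 1 and 2, against 750 and 783 CPM in WT replicates 1 and 2. KO replicate 2 was the lowest and KO replicate 1 lay between the WT libraries, so the genotypes overlapped. The log2 fold change was -0.09 (SE 0.13, limma, BH-adjusted p = 0.957), with a 95% interval from -0.38 to 0.19. Without KO replicate 2 it was 0.01. Counting error was small here, at 4.17% of the value in KO replicate 1.

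Atp1b3, at chromosome 9, 96214710 to 96246485 on the minus strand, encodes a beta subunit that brings the alpha subunit to the membrane. It is used in many cell types. It had 342 and 273 CPM in KO, against 331 and 321 CPM in WT, so the KO libraries enclosed the WT libraries. Its log2 fold change was -0.09 (SE 0.15, limma, BH-adjusted p = 0.962), and without KO replicate 2 it was 0.07. The ratio of Atp1a4 to Atp1b3, in CPM per kb, was 1.26 and 1.39 in KO and 1.28 and 1.37 in WT. Both subunits were lower in KO replicate 2 than in KO replicate 1, and their ratio was the higher there. The log2 ratio differed by -0.003 between genotypes, and the two-sided exact permutation test gave p = 1.00. It differed by 0.067 without KO replicate 1 and by 0.048 without WT replicate 2. With 2 libraries against 2 that test cannot give a p below 0.333.

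Calcium export is the task of Atp2b4, at chromosome 1, 133630412 to 133681486 on the minus strand. It encodes the plasma membrane calcium pump that predominates in mouse sperm, and loss of it in mice impairs hyperactivated motility. It is also expressed in smooth muscle and other cells. Atp2b4 had 106 and 78.6 CPM in KO, against 101 and 88.7 CPM in WT. The KO libraries again enclosed the WT libraries, and the log2 fold change was -0.05 (SE 0.20, limma, BH-adjusted p = 0.985). It was 0.16 without KO replicate 2, 0.04 without WT replicate 1 and 0.12 after thinning every library to the same depth. The 10 endothelial and smooth muscle markers summed to 107 and 99.8 CPM in KO and to 133 and 143 CPM in WT, and in both KO libraries 4 of the 10 were below and 1 was above both WT libraries, against 19.2% below and 15.1% above over all genes tested. The part of these cells in the Atp2b4 value was not tested.

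The tables list 2 transcripts of Atp2b4 that differ by a single alternative exon near the 3′ end of the coding sequence. NM_001167949, of 8292 bases, contains the exon, and NM_213616, of 8101 bases, skips it. The exon has 191 bases and is number 20 of 21. It holds its own stop codon, so the protein read from the longer transcript ends there, while the shorter transcript reads on to a stop codon in the last exon. The ending without this exon is known to bind PDZ domain proteins, and both endings differ in how calmodulin controls the pump. The exon is shown because it is the whole difference between the transcripts. Its 186 coding bases and stop codon, from the GENCODE transcript set on GRCm38, lie at chr1:133711634-133711822 on the minus strand. The capitals mark the stop codon.
Atp2b4 alternative exon: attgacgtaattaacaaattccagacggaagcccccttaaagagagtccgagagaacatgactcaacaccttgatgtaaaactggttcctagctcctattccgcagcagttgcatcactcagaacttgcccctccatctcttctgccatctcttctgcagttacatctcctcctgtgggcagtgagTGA

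The transcript that skips this exon carried most of the Atp2b4 value in every library. The exon-containing transcript had 5.94 and 19.0 CPM in KO, against 34.5 and 26.9 CPM in WT. Its share of the gene was 5.63% and 24.2% in KO replicates 1 and 2, against 34.1% and 30.4% in WT replicates 1 and 2. Both KO shares were below both WT shares, by a mean of 17.3 percentage points, although the summed gene level overlapped. The mean difference was -8.05 points without KO replicate 1 and -26.6 points without KO replicate 2. Among 9492 transcripts that made up a mean of at least 5% of a gene with several transcripts and at least 20 CPM, 17.9% had both KO shares below both WT shares and 16.8% had both above. The two-sided exact permutation test gave p = 0.333, the smallest that 2 against 2 libraries allow.

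Counting error was wide for these shares. The 95% exact Clopper-Pearson interval was 1.40% to 12.5% in KO replicate 1 and 12.3% to 38.0% in KO replicate 2. In WT it was 26.9% to 41.5% for replicate 1 and 23.6% to 38.4% for replicate 2, so KO replicate 2 overlapped WT. These intervals take the deposited division of reads between the transcripts as given. The exon is 2.3% of the longer transcript, and only reads that touch it or its junctions tell the transcripts apart.

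**Figure D3:**
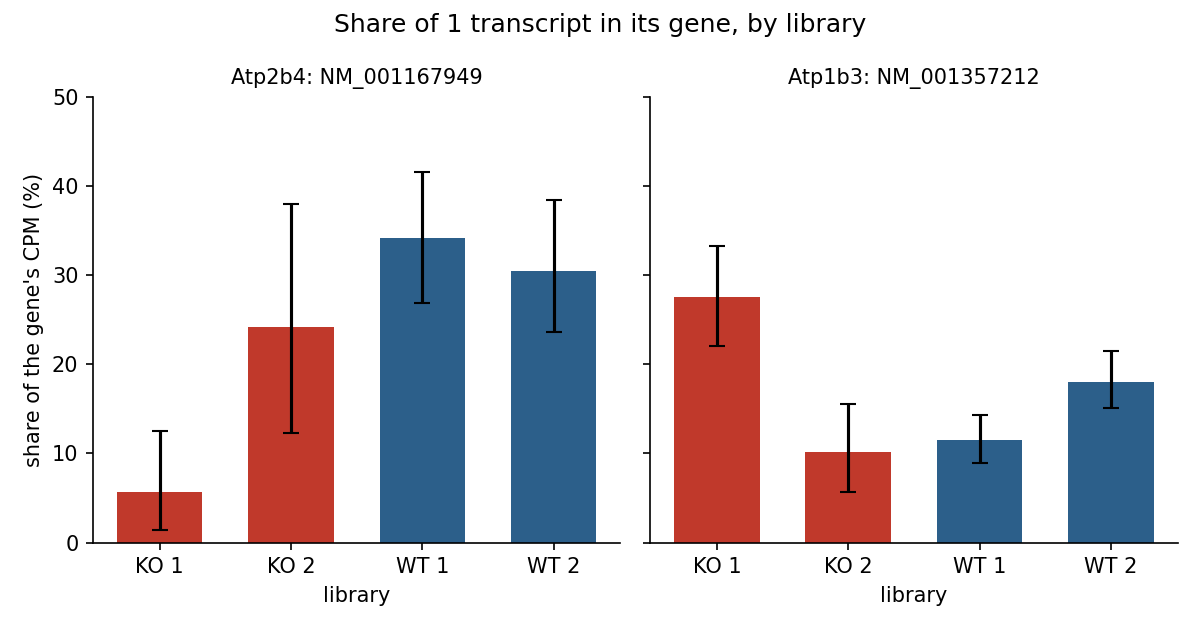
Share of the gene's CPM, in percent, of the exon-containing Atp2b4 transcript (left) and of the shorter-spliced Atp1b3 transcript NM_001357212 (right) in each library. Bars are the shares and error bars 95% exact binomial intervals, which cover counting error only. The Atp2b4 share is lower in both KO libraries (5.63% and 24.2%) than in both WT libraries (34.1% and 30.4%), while the Atp1b3 shares of the genotypes overlap.

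Atp1b3 has 3 listed transcripts, and its main one, NM_007502, had 242 and 245 CPM in KO, against 290 and 254 CPM in WT. The transcript NM_001357212, of 1873 bases against 1981 for the main one, made up 27.5% and 10.1% of the gene in KO and 11.5% and 18.0% in WT. KO replicate 1 was the highest and KO replicate 2 the lowest, so its shares overlapped. The third transcript, NM_001357213, had at most 8.64 CPM in any library.

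Proton export in mouse sperm is attributed largely to Slc9c1, at chromosome 16, 45355629 to 45427365 on the plus strand. It encodes the sperm sodium-proton exchanger, which carries a voltage sensor and a domain for cyclic nucleotides, and male mice without it are infertile. Slc9c1 had 116 and 87.0 CPM in KO, against 94.7 and 86.5 CPM in WT. KO replicate 1 was the highest library and the other 3 lay close together. The log2 fold change was 0.15 (SE 0.19, limma, BH-adjusted p = 0.953), with a 95% interval from -0.28 to 0.58. Without KO replicate 1 it was -0.06, so the direction rested on that library.

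Slc26a8, at chromosome 17, 28856753 to 28908962 on the minus strand, encodes an anion transporter of spermatocytes, spermatids and the sperm tail that is required for sperm motility in mice. It had 148 and 142 CPM in KO, against 138 and 142 CPM in WT. Its values in KO replicate 2 and WT replicate 2 were nearly equal, and the KO libraries lay just above the WT libraries. The log2 fold change was 0.05 (SE 0.15, limma, BH-adjusted p = 0.980). Among the members it was, with Kcnu1, the steadiest between libraries, with a coefficient of variation of 2.98% in KO and 1.86% in WT. Counting error alone came to 6.24% or more of the value in each library, and a spread below it is no sign of precision.

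Both Kcnu1 and Lrrc52 encode subunits of the channel that carries the potassium current of mouse sperm. Kcnu1, at chromosome 8, 26339651 to 26427963 on the plus strand, encodes the pore of the sperm potassium channel SLO3, which opens as the cell becomes alkaline. Kcnu1 had 79.3 and 81.2 CPM in KO, against 78.9 and 76.8 CPM in WT. Both KO values were above both WT values, by less than the counting error of any library, which was 8.49% or more of the value. The log2 fold change was 0.04 (SE 0.17, limma, BH-adjusted p = 0.986), and after thinning to the same depth it was just under 0.

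Lrrc52, at chromosome 1, 167273244 to 167294350 on the minus strand, encodes the auxiliary subunit that shifts the opening of this channel to the voltages and pH of a sperm cell. It had 34.6 and 41.8 CPM in KO, against 30.8 and 37.6 CPM in WT. The genotypes overlapped, and the log2 fold change was 0.15 (SE 0.24, limma, BH-adjusted p = 0.960). Leaving out KO replicate 1 gave 0.29, and so did leaving out WT replicate 2. With KO replicate 2 left out it was 0.02, and with WT replicate 1 left out 0.01. Its 95% interval, from -0.38 to 0.69, had the highest upper bound among the members. The ratio of Lrrc52 to Kcnu1, in CPM per kb, was 1.35 and 1.60 in KO and 1.21 and 1.52 in WT. The auxiliary subunit thus had more CPM per kb than the pore in all 4 libraries. The log2 ratio differed by 0.114 between genotypes (two-sided exact permutation test, p = 0.667), and by -0.006 without KO replicate 2 and -0.048 without WT replicate 1.

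Hvcn1 had the lowest level and the largest estimate of change. The gene lies at chromosome 5, 122348202 to 122380361 on the plus strand, and it encodes the voltage-gated proton channel. Its role in sperm is known from human sperm, where it lets protons out, and it is also expressed in phagocytes and B cells. Hvcn1 was listed at 0 in both KO libraries, against 2.22 and 4.09 CPM in WT. These WT values correspond to 3.8 and 7.4 estimated reads. Of the 2 listed transcripts, NM_028752 carried 74.6% of the value in WT replicate 1, and NM_001359454 carried 99.9% in WT replicate 2. Such shares rest on few reads. Both WT libraries were above both KO libraries, as held for 19.2% of all genes tested.

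At the WT level, 4.28 reads would have been counted over both KO libraries. Against a floor of 3 reads over the KO group, which is 2.23 CPM, Hvcn1 was at least 1.43-fold lower in KO. That bound takes the WT reads as measured. With counting error on both sides, the 95% exact conditional interval allowed a KO level of up to 104% of WT, so a difference was not detectable at this depth. The fitted value of -2.02 on the log2 scale (SE 0.77, limma, unadjusted p = 0.0279, BH-adjusted p = 0.950) depends on the pseudocount of 1 CPM and is no bound. It was -4.96 with a pseudocount of 0.1 CPM and -0.70 with 5 CPM. After quantile normalization it was -1.31, and its unadjusted limma p was then above 0.05, so that no member stood under 0.05 there.

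Values that bear on the source of the Hvcn1 reads were as follows. The 9 listed markers of myeloid and lymphoid cells, of 16 sought, summed to 43.4 and 60.3 CPM in KO and to 51.6 and 59.9 CPM in WT. Of these 9, 2 were lower in both KO libraries than in both WT libraries and 1 was higher, against 19.2% lower and 15.1% higher over all genes tested. Of the 9, 1 was at 0 in both KO libraries, Tyrobp, an adaptor of myeloid cells. Among all 17934 genes, 1178 and 1329 were at 0 in KO replicates 1 and 2, against 145 and 223 in the deeper WT libraries. The B cell genes Cd79a and Cd79b were not analysed here. The part of immune cells in the Hvcn1 value was not tested. The last part of Hvcn1 overlaps the 3′ part of Tctn1, a ciliary gene on the opposite strand, from 122377558 to 122380361. The sources used here do not say whether counting used strand, so reads there cannot be told apart. Tctn1 had 52.1 and 53.5 CPM in KO and 53.2 and 48.2 CPM in WT.

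The genes of related function whose pattern over the 4 libraries was most like that of Hvcn1 included Slc26a5 and Slc26a4. Likeness was the Euclidean distance between log2(CPM + 1) values centred on each gene's mean, which was 1.09 and 1.23 for these genes among 120 compared. Both were low. Slc26a5 and Slc26a4, known from the inner ear, had at most 1.36 CPM in either KO library and at most 2.79 CPM in either WT library.

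Of 139 gene names in 7 lists of related ion transport genes, 122 were measured and 120 were tested. In none of the lists did a gene pass over all genes tested (limma, BH-adjusted p of 0.950 or more), in either direction. At an unadjusted p under 0.05 stood 2 genes higher and 2 lower in KO, 3.33% of the 120, against 4.33% of all genes tested. Of the 120, 10 lay above WT without overlap and 28 below, against 15.1% and 19.2% of all genes tested. The median log2 fold change over the 120 genes was -0.05, and over all genes tested it was -0.04.

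**Figure D4:**
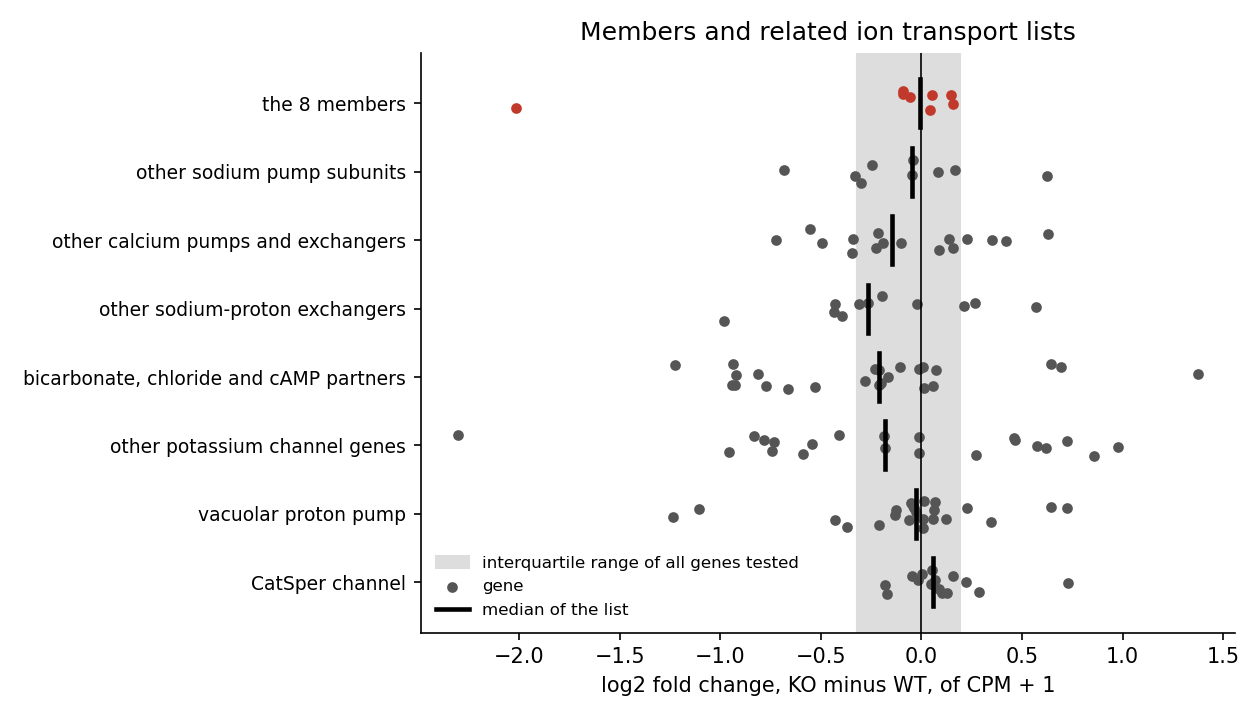
Log2 fold change of CPM + 1, KO minus WT, of each tested gene in the 8 members (red) and in each related list (grey points), with the list's median as a black bar and the interquartile range of all genes tested as a grey band. The list medians run from -0.27 to 0.06 and all lie within the band.

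Of 9 other sodium pump genes tested, 0 passed in either direction, and their median log2 fold change was -0.05. Atp1b1, a further beta subunit gene, had 17.1 and 41.5 CPM in KO and 23.9 and 26.6 CPM in WT. Per length it stood at 6.62 and 16.0 CPM per kb in KO and 9.23 and 10.3 in WT, below Atp1b3 in each library.

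Among 16 other calcium pump and exchanger genes, 0 passed in either direction, with a median log2 fold change of -0.15. The plasma membrane calcium pump gene Atp2b1 had 13.4 and 6.18 CPM in KO and 12.7 and 19.5 CPM in WT. Its relative Atp2b2 had 4.48 and 10.5 CPM in KO and 11.0 and 7.39 CPM in WT. Per length both stayed below Atp2b4, at no more than 2.71 CPM per kb in any library, so Atp2b4 was the highest of these 3 calcium pump genes. Atp2c1, the calcium and manganese pump of the Golgi, had 22.7 and 29.3 CPM in KO and 21.1 and 25.9 CPM in WT.

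The other sodium-proton exchanger list had 0 of 11 tested genes called in either direction and the lowest median of the lists, -0.27. Slc9b1, an exchanger gene of sperm, had 128 and 110 CPM in KO and 124 and 118 CPM in WT. Per length it was above Slc9c1 in each library, at 56.9 and 49.0 CPM per kb in KO and 55.2 and 52.4 in WT. Its relative Slc9b2 averaged below 1 CPM and was not tested. Slc9a8, an exchanger of intracellular membranes needed for acrosome formation in mice, had 40.1 and 32.6 CPM in KO and 49.8 and 48.5 CPM in WT (log2 fold change -0.43, SE 0.22, limma, BH-adjusted p = 0.950). Both KO libraries were below both WT libraries for Slc9a8. In this list 4 of 11 genes lay below WT without overlap and 0 above, against 19.2% and 15.1% of all genes tested.

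Partners of these transporters in bicarbonate, chloride and cAMP handling had 0 of 24 tested genes called in either direction, with a median of -0.21. Adcy10 encodes the bicarbonate-activated adenylyl cyclase that acts together with Slc9c1, and it had 315 and 251 CPM in KO and 269 and 272 CPM in WT. As with Slc9c1, KO replicate 1 was the highest library. Racgap1, whose protein binds that of SLC26A8 in human germ cells, had 68.1 and 57.4 CPM in KO and 71.4 and 72.7 CPM in WT. Septin12, of the annulus, a ring of the sperm tail, had 311 and 358 CPM in KO and 373 and 377 CPM in WT. Both were lower in each KO library than in each WT library, and neither passed (limma, BH-adjusted p = 0.950 for both). Of the 24 genes, 10 lay below WT without overlap and 2 above, against 19.2% and 15.1% of all genes tested. That difference in share was not tested.

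Cftr, a chloride and bicarbonate channel gene, had 16.0 and 21.4 CPM in KO and 19.5 and 15.9 CPM in WT. The anion exchanger genes Slc26a6 and Slc26a3 stayed at 8.01 CPM or less in both genotypes, so Slc26a8 was the highest of these 3 anion transporter genes per length in every library. Slc26a10 was chosen after its values were seen, as a gene at an unadjusted p under 0.05. It had 11.6 and 8.21 CPM in KO and 4.73 and 2.02 CPM in WT, on no more than 8.7 estimated reads in a library.

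Of 21 other potassium channel genes tested, 0 passed in either direction, with a median of -0.18. Lrrc26, a relative of Lrrc52 that serves another channel of this family, had at most 2.77 CPM per kb in any library, so Lrrc52 was far above it in all 4 libraries. Kcnma1, which encodes that other channel, was not analysed here. Kcnk2, also chosen after its values were seen, had 1.37 and 0 CPM in KO and 8.56 and 5.07 CPM in WT, with 1 estimated read in KO replicate 1 and 0 in KO replicate 2.

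The vacuolar proton pump had 0 of 23 tested genes called in either direction, with a median of -0.03. Atp6v1e2, its germ cell subunit, had 133 and 191 CPM in KO and 151 and 156 CPM in WT. Atp6v0c, of the membrane ring of the pump, had 19.2 and 18.7 CPM in KO and 51.3 and 34.3 CPM in WT (log2 fold change -1.11, SE 0.28, limma, BH-adjusted p = 0.950). Its unadjusted p of 0.00307 was the smallest among the related genes. Near-identical copies of Atp6v0c exist in the mouse genome, so its value is uncertain.

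The CatSper calcium channel opens in the alkaline sperm tail. Of 16 tested genes of its complex 0 passed in either direction, with a median of 0.06. Catsper1, a pore subunit gene, had 150 and 135 CPM in KO and 152 and 169 CPM in WT. The 16 genes summed to 2128 and 2218 CPM in KO and to 2120 and 2098 CPM in WT. Catspere1, chosen after its values were seen, had 47.2 and 66.8 CPM in KO and 32.4 and 34.8 CPM in WT (log2 fold change 0.73, SE 0.24, limma, BH-adjusted p = 0.950). Catspere2 is a near copy of it, so reads can be divided between them, and it had 37.1 and 46.1 CPM in KO and 32.9 and 34.7 CPM in WT.

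The KO libraries differed from each other for several members. KO replicate 1 was above KO replicate 2 by 0.20 for Atp1a4, 0.33 for Atp1b3, 0.42 for Atp2b4 and 0.41 for Slc9c1, on the log2(CPM + 1) scale. It was below KO replicate 2 by 0.27 for Lrrc52, and for Slc26a8 and Kcnu1 the KO libraries differed by 0.06 and 0.03. In WT the difference between replicates was at most 0.28 in size for the 7 members other than Hvcn1. Over all genes tested, the median size of the difference was 0.44 between the KO libraries and 0.26 between the WT libraries. Over genes that averaged 20 CPM or more it was 0.28 and 0.15, so the 0.27 of the 7 members between KO libraries was near that of their class, and their 0.06 between WT libraries was below it. The elongating spermatid markers moved the other way, with a lower sum in KO replicate 1 than in KO replicate 2, and their part in these differences was not tested.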

How the data were processed

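Testis RNA of 2 KO and 2 WT libraries was compared. Per the labels' protocols, an RNAqueous kit served for extraction and the Ion Total RNA-Seq Kit for library construction. STAR, Partek and build mm39 are named in the submitters' processing notes, without versions or roles. The authors deposited 1 value for each of 29342 RefSeq transcripts per library. Each deposited column sums to 1000000, and its low values are multiples of a step that is the same for transcripts of any length, so the unit is CPM. That step, the CPM of 1 read, was 1.336 and 1.672 in KO and 0.5816 and 0.5532 in WT, and its inverse gave the depths. Only 20.5% to 45.5% of genes per library came out as whole reads (tolerance 0.01 reads), so no count model was fitted.

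Transcripts of a symbol were added up, and 10 symbols that occur on more than 1 chromosome were split. The 17654 genes averaging 1 CPM or more entered a two-sided moderated test (limma 3.58.1, R 4.3.3) with a mean-variance trend, run on log2(CPM + 1) and BH-adjusted over all of them. This scale understates changes of low genes. CPM per kb divides each transcript's CPM by its listed length. The limma intervals rest on the moderated spread between libraries of a genotype. The exact intervals and the floor in reads cover counting error only, and reads carry no molecular identifiers. Named genes were Tas1r3, the 8 members, related genes fixed by role, the 3 genes nearest to the member with the smallest p, and those named as chosen after their values were seen. Some of these genes are not reported here. Members and lists were chosen with earlier results of these data known. The procedure was tested on simulated data, with changes only in well-expressed genes and the same noise in both genotypes. That does not cover lower genes such as Lrrc52 and Hvcn1, or the wider gap between the KO libraries. Figures were drawn with matplotlib 3.10.9.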

Additional observations from a re-analysis of the deposited data

How the results depend on the processing

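Under pseudocounts of 0.1 and 5 CPM, a minimum mean of 5 CPM, no minimum, TMM factors, quantile normalization, no trend, a replicate block, thinning to the shallowest library and each library left out, 0 of the 8 members were called, and likewise at an adjusted p under 0.1. Hvcn1 was not tested at 5 CPM, where its mean was too low. Of 103 values of members, 96 kept their direction. The other 7 turned: Atp2b4 to 0.12 and Kcnu1 to just under 0 (-0.00) after thinning, which is a single random draw, Atp1a4 to 0.01, Atp1b3 to 0.07 and Atp2b4 to 0.16 without KO replicate 2, Atp2b4 to 0.04 without WT replicate 1, and Slc9c1 to -0.06 without KO replicate 1. Without a library in turn, Atp1a4 ran from -0.19 to 0.01, Atp1b3 from -0.26 to 0.07, Atp2b4 from -0.26 to 0.16 and Slc9c1 from -0.06 to 0.35, while Lrrc52 ran from 0.01 to 0.29, Slc26a8 from 0.02 to 0.08 and Kcnu1 from 0.02 to 0.06 with no turn. The cause was not tested. The lowest adjusted p of a member was 0.107, for Hvcn1 without KO replicate 1. Over all genes tested, 0 genes were called with a pseudocount of 0.1 CPM (633 at an unadjusted p under 0.05), without the trend (1041) and after thinning (915). Leaving out a library gave 0 to 954 calls over all genes and 0 to 7 among related genes. The fits with a lone KO library assume that it varies like the WT pair, and the 954 and the 7 calls came without KO replicate 1. The replicate block gave 24 calls, and 0 among members and related genes. Across genes, WT and KO differences between replicates 1 and 2 had a correlation of -0.00585. Over the 4047 genes that averaged 50 CPM or more it was -0.0961. These values do not decide whether the libraries were paired, which the labels do not say. With a library left out, the log2 ratio of Atp1a4 to Atp1b3 differed by -0.073 to 0.067 and that of Lrrc52 to Kcnu1 by -0.048 to 0.277 between genotypes. The Atp2b4 exon-containing share differed by -8.05 to -26.6 points, and the Atp1b3 NM_001357212 share differed by -4.70 to 12.7 points. Depth limits Hvcn1, which was listed at 0 in KO. TMM and quantile scaling moved the median of all genes from -0.045 to -0.032 and -0.004.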
